A study of Gallus gallus with 3 samples.

Results

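The KIT and CXCR4 signals of germ cell migration were followed here through 8 genes chosen by name: the receptor KIT and its ligand KITLG, the chemokine receptor CXCR4, its ligand CXCL12 and the second CXCL12 receptor ACKR3, and the platelet-derived growth factor receptors PDGFRA and PDGFRB with the ligand PDGFA. All 8 were found among the 19152 genes of the count table, and all 8 were among the 14489 genes tested. The list names the genes and its rule uses no measured value, but it was drawn up with earlier results of these data known.

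RNA sequencing covered cells of the chicken, Gallus gallus, grown in culture. Primordial germ cells, abbreviated PGCs and kept as migratory-stage cells, gave the libraries PGC replicate 2 and PGC replicate 3, and embryonic stem cells (ESCs), an in vitro derivative of the early embryo that served as the somatic counterpart, gave the library ESC replicate 2. The comparison asks which genes the germline cells express differently from these cultured ESCs, whose library also carried caudal mesoderm genes, as given below. No treatment or genetic change was named for either cell type. The sex, age and number of the source embryos are not given in the sources used here, and both cell types had been grown in vitro, where the gonad and other tissues along the migration route are missing. With 1 ESC library analysed here, the spread on that side was not measured, and the test assumes that this library varies as the PGC libraries do.

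In vertebrates, PGCs arise far from the gonads and must travel to them, which in birds includes a passage through the bloodstream. KIT is a receptor tyrosine kinase that germ cells carry and that KITLG, made by the surrounding tissue, activates for their survival and movement, as worked out in mouse. CXCR4 is a G protein-coupled receptor with which PGCs follow CXCL12, and ACKR3 binds and removes the same ligand without signalling through G proteins, as worked out in zebrafish. PDGFRA is a relative of KIT in the same receptor class and is known from mesoderm and mesenchyme, and PDGFRB from cells of vessel walls.

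The libraries were alike in depth, at 19754278 and 20401551 counts for PGC replicates 2 and 3, against 20568106 counts for the ESC library. Levels are given as counts per 1000000 (CPM) on libraries scaled with trimmed mean of M-values factors, or as TPM, which also divides by gene length and was used to compare the levels of the 8 genes with each other. The labels were checked with germ cell and pluripotency genes. DAZL, an RNA-binding protein of germ cells, had 2048 and 2269 CPM in the PGC libraries against 0.901 CPM in the ESC library. In all, 5 of 5 tested germ cell markers were higher in PGCs, beside 21.2% of all genes tested. The pluripotency factor NANOG had 199 and 294 CPM in PGCs and 241 CPM in ESCs (edgeR adjusted p = 0.939). The ESC library also carried caudal mesoderm genes, the mesoderm factor T having 5.45 and 8.30 CPM in the PGC libraries against 643 CPM in the ESC library.

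KIT rose in PGCs, KITLG, PDGFRA and PDGFA fell, and CXCR4, CXCL12, ACKR3 and PDGFRB did not pass the test. This made 4 of 8 genes past an adjusted p of 0.05 in edgeR's quasi-likelihood test with Benjamini-Hochberg adjustment over all genes tested, 1 higher and 3 lower, where 41.7% of all tested genes passed, 21.2% higher and 20.6% lower. Over all genes this was 3069 higher and 2979 lower, and with scaling by total counts it was 4161 higher and 2063 lower. The same 4 genes differed from the ESC library by 2-fold or more in both PGC libraries, 1 higher against 21.6% and 3 lower against 15.8% of all genes tested, or 37.4% in either direction. By CPM, both PGC libraries lay on the same side of the ESC library for 6 of the 8 genes, against 89.9% of all genes tested. The 8 genes had a median log2 ratio of PGC over ESC of −0.73, and all tested genes had one of 0.03. The share past the test was near that of the transcriptome, so the count by itself says nothing particular about the 8 genes. The sizes and the spread between the PGC libraries did differ widely within the group.

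**Figure D1:**
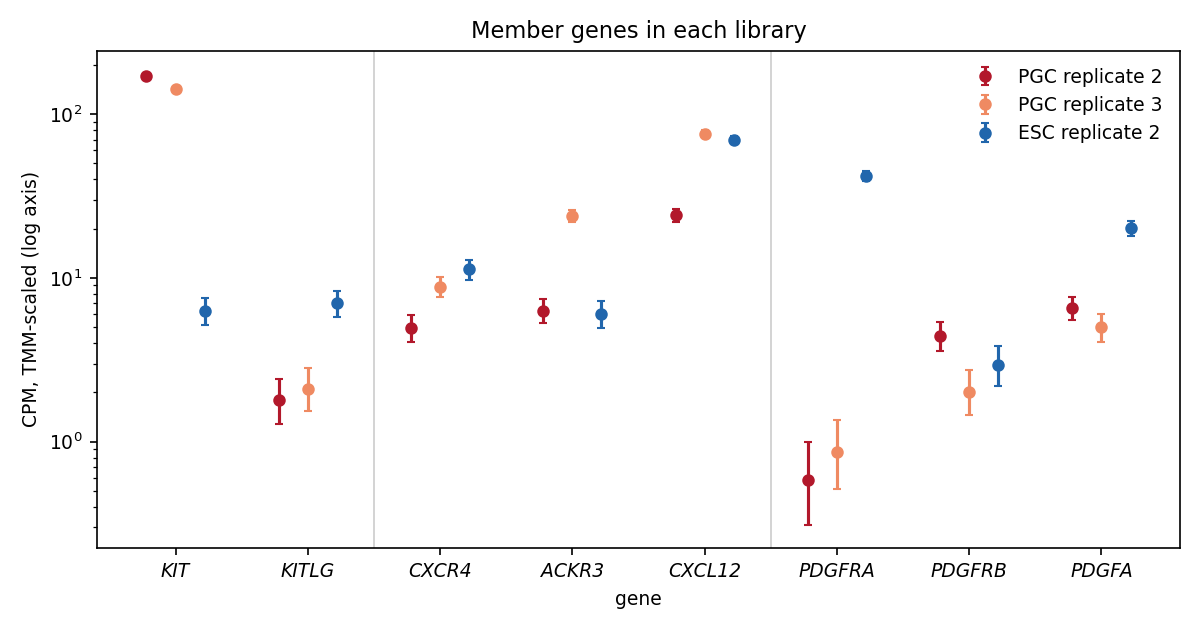
Level of each of the 8 genes in CPM (log axis) in PGC replicate 2, PGC replicate 3 and ESC replicate 2, with 95% exact Poisson intervals that cover counting error only. KIT lies at 172 and 142 CPM in PGCs and at 6.25 CPM in the ESC library, PDGFRA at 0.580 and 0.864 CPM in PGCs and at 41.8 CPM in the ESC library.

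KIT (ENSGALG00000038634) lies on the minus strand of chromosome 4, at 65682458 to 65734704 in the galGal5 build, with 21 exon blocks that cover 5223 bases. It had 3851 and 2953 counts in PGC replicates 2 and 3, against 111 counts in the ESC library. The CPM were 172 and 142 in the PGC libraries, a mean of 157 ± 21.4 (SD, n = 2), against 6.25 in the ESC library (95% counting interval 5.14 to 7.53). Both PGC libraries were high, they were close to each other, and the ESC library lay far below them, although it was well above 0. The fold was 25.1 and the log2 ratios were 4.76 and 4.48, beyond the 95th percentile of all genes at 3.11. edgeR gave a log2 fold change of 4.65 with a standard error of 0.32 (adjusted p = 8.30e-06), and by mean ratio KIT stood 213th from the top of 14489 tested genes. By TPM, KIT stood at the 82.3rd and 78.1st percentile of detected genes in the PGC libraries and at the 28.4th in the ESC library.

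KITLG (ENSGALG00000011206), the ligand that neighbouring cells present to KIT on their surface or release, lies on the minus strand of chromosome 1 at 42981399 to 43032887, with 12 exon blocks over 1544 bases. It had 40 and 44 counts in PGC replicates 2 and 3, against 124 counts in the ESC library, or 1.79 and 2.11 CPM against 6.98 CPM. The PGC libraries differed by less than counting error (ratio of replicate 3 to replicate 2 of 1.18, 95% counting interval 0.753 to 1.86), and both lay below the ESC library. Here and below, the SD of a mean log2 ratio holds the spread between the PGC libraries only, because both ratios share the same ESC library. KITLG fell in PGCs, by a mean log2 ratio of −1.79 ± 0.16 (SD, n = 2), and the ESC library was 3.58-fold higher (edgeR adjusted p = 0.0118). That call was lost with DESeq2 (adjusted p = 0.0543) and when libraries were scaled by TPM (adjusted p = 0.0597), and over all alternatives the adjusted p ran from 0.00750 to 0.0597. Receptor and ligand thus had opposite directions in the same libraries. Within a library, KIT had 28.5 and 19.8 times the TPM of KITLG in the PGC libraries and 0.265 times its TPM in the ESC library.

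PDGFRA (ENSGALG00000013929), the receptor of PDGFA and of other PDGF ligands, lies on the minus strand of chromosome 4 at 65811116 to 65842656, with 23 exon blocks over 3727 bases. It had 13 and 18 counts in PGC replicates 2 and 3, against 742 counts in the ESC library, or 0.580 and 0.864 CPM against 41.8 CPM. Both PGC libraries were near the lower end of what this depth can measure, and the ESC library was clearly apart. PDGFRA fell in PGCs, and the ESC library was 57.8-fold higher, with log2 ratios of −5.95 and −5.44 and an edgeR log2 fold change of −5.85 with a standard error of 0.37 (adjusted p = 5.35e-06). By mean ratio it stood 92nd from the bottom of all genes tested. The ESC library that carried PDGFRA also carried the caudal mesoderm markers. Of 7 such markers tested, 6 were lower in PGCs, beside 20.6% of all genes tested. The summed level of the list was 26.3 and 67.3 CPM in PGCs against 1046 CPM in the ESC library, with EVX1 and MSGN1 at 0 in PGC replicate 2. The part of these cells' markers in the PDGFRA result was not tested. In bulk RNA, fewer cells of a type and less RNA per cell cannot be told apart.

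PDGFA (ENSGALG00000003642), the ligand that acts through PDGFRA, is on the minus strand of chromosome 14 at 1992075 to 2013552, with 8 exon blocks over 1258 bases. It had 146 and 104 counts in PGC replicates 2 and 3, against 356 counts in the ESC library, or 6.52 and 4.99 CPM against 20.0 CPM. The PGC libraries were both low and the ESC library lay above them. PDGFA fell in PGCs by a mean log2 ratio of −1.80 ± 0.27 (SD, n = 2), and the ESC library was 3.48-fold higher (edgeR adjusted p = 0.00307). Receptor and ligand of this pair were therefore both lower in PGCs, in contrast to KIT and KITLG. PDGFRA had 0.0301 and 0.0584 times the TPM of PDGFA in the PGC libraries and 0.704 times in the ESC library.

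PDGFRB (ENSGALG00000030613), the receptor for PDGFB and PDGFD, is on the plus strand of chromosome 13 at 13256919 to 13269462, with 22 exon blocks over 3273 bases. It had 99 and 42 counts in PGC replicates 2 and 3, against 52 counts in the ESC library, or 4.42 and 2.02 CPM against 2.93 CPM. The ESC library lay between the PGC libraries, so the groups overlapped. The log2 ratios were 0.58 and −0.52, and edgeR gave an adjusted p of 0.865 with a 95% interval of the log2 fold change of −1.19 to 1.47. PDGFRB was low in all 3 libraries, and PDGFRA relative to it was 0.115 and 0.376 by TPM in the PGC libraries and 12.5 in the ESC library.

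**Figure D2:**
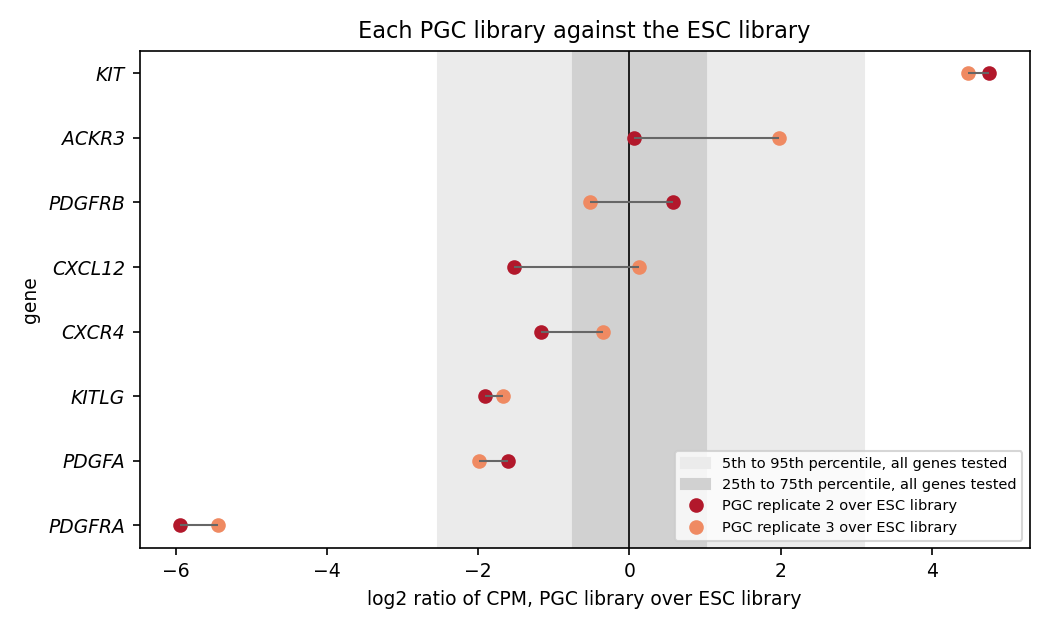
Log2 ratio of CPM of PGC replicate 2 and PGC replicate 3 over the ESC library for each gene, with grey bands for the 5th to 95th and the 25th to 75th percentile of the mean ratio over all genes tested. KIT, at 4.76 and 4.48, and PDGFRA, at −5.95 and −5.44, lie outside both bands, and the points of CXCL12, ACKR3 and PDGFRB are far apart.

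KIT and PDGFRA are neighbours in the genome, and the endothelial receptor gene KDR, which encodes a VEGF receptor, lies on the other side of KIT. The KDR gene (ENSGALG00000013907) is on the plus strand of chromosome 4 at 65598124 to 65625791, 56666 bases from KIT, and 76411 bases separate KIT from PDGFRA. KDR had 11 and 22 counts in PGC replicates 2 and 3, against 628 counts in the ESC library, or 0.491 and 1.06 CPM against 35.4 CPM. KDR fell in PGCs, with log2 ratios of −5.91 and −4.94 (edgeR adjusted p = 1.79e-05). KIT thus rose in PGCs between 2 genes that fell there. The neighbourhood was looked at after the values were known, and it gives no test of its own.

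From 200000 bases before KIT to 200000 bases past PDGFRA the count table held 10 genes, these 2 included, of which 9 could be tested. CLOCK, a transcription factor of the circadian clock, rose in PGCs with 32.5 and 24.3 CPM against 12.2 CPM in the ESC library (edgeR adjusted p = 0.0115). TMEM165, a protein of the Golgi membrane, fell with 48.2 and 64.7 CPM against 127 CPM in the ESC library (adjusted p = 0.00509 in the same edgeR fit). CHIC2 had 13.8 and 16.4 CPM in PGCs against 14.9 CPM in the ESC library (edgeR adjusted p = 0.972). SRD5A3 had 35.5 and 23.7 CPM in PGCs against 36.0 CPM in the ESC library. The differences of the genes named here thus went both ways along this stretch. Whether their position has a part in these values was not tested.

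**Figure D3:**
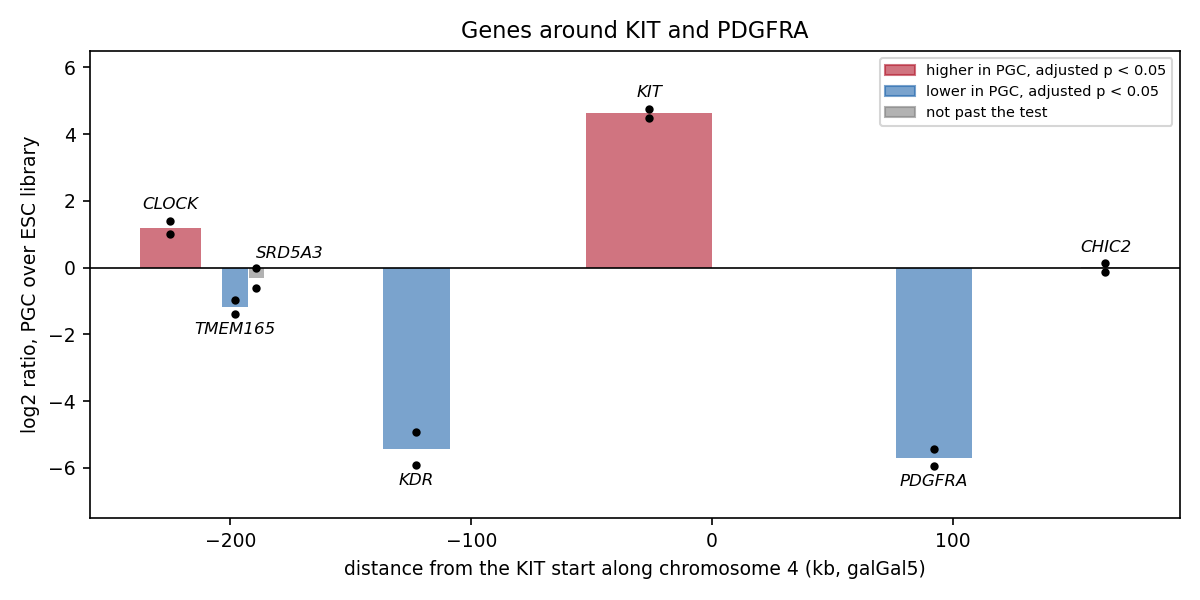
Mean log2 ratio of PGC over ESC (bars as wide as each gene) and the ratio of each PGC library (points) for the named genes around KIT and PDGFRA, by distance in kb from the start of KIT, which reads toward the left. KIT, with ratios of 4.76 and 4.48, stands between KDR, with −5.91 and −4.94, and PDGFRA, with −5.95 and −5.44.

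CXCR4 (ENSGALG00000012357) lies on the minus strand of chromosome 7 at 30913614 to 30916302, with 2 exon blocks over 1706 bases. It had 111 and 184 counts in PGC replicates 2 and 3, against 200 counts in the ESC library, or 4.96 and 8.83 CPM against 11.3 CPM. Both PGC libraries lay below the ESC library, by log2 ratios of −1.17 and −0.35, and they differed from each other by more than counting error, with replicate 3 at 1.78 times replicate 2 (95% counting interval 1.40 to 2.28). The difference did not pass the test (edgeR adjusted p = 0.208), with a 95% interval of the log2 fold change of −1.67 to 0.25. That interval leaves room for a lower level in PGCs and does not show equality. Per length, CXCR4 had 6.61 and 10.2 TPM in PGCs and 10.1 TPM in ESCs, so by TPM the ESC library lay between the PGC libraries.

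CXCL12 (ENSGALG00000041346), the chemokine that attracts cells bearing CXCR4, lies on the minus strand of chromosome 6 at 19020439 to 19033686, with 6 exon blocks over 2731 bases. It had 539 and 1586 counts in PGC replicates 2 and 3, against 1236 counts in the ESC library, or 24.1 and 76.1 CPM against 69.6 CPM. PGC replicate 2 was low while PGC replicate 3 was slightly above the ESC library, so the groups overlapped. The log2 ratios were −1.53 and 0.13, and the edgeR adjusted p was 0.458. The spread between the PGC libraries, 3.16-fold (95% counting interval 2.87 to 3.49), was one that 2.25% of all tested genes exceeded.

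ACKR3 (ENSGALG00000021031), the receptor that takes up CXCL12, lies on the minus strand of chromosome 7 at 5036416 to 5041363, with 5 exon blocks over 2337 bases. It had 141 and 499 counts in PGC replicates 2 and 3, against 107 counts in the ESC library, or 6.30 and 23.9 CPM against 6.02 CPM. PGC replicate 3 was high and PGC replicate 2 was at the level of the ESC library, above it by a log2 ratio of 0.06 only. The mean log2 ratio was 1.02 ± 1.35 (SD, n = 2), so the difference between PGC and ESC was smaller than the spread between the PGC libraries, and edgeR gave an adjusted p of 0.129. ACKR3 passed the test when libraries were scaled by total counts (adjusted p = 0.0268) or by TPM (adjusted p = 0.00360), and over all alternatives the adjusted p ran from 0.00360 to 0.188.

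**Figure D4:**
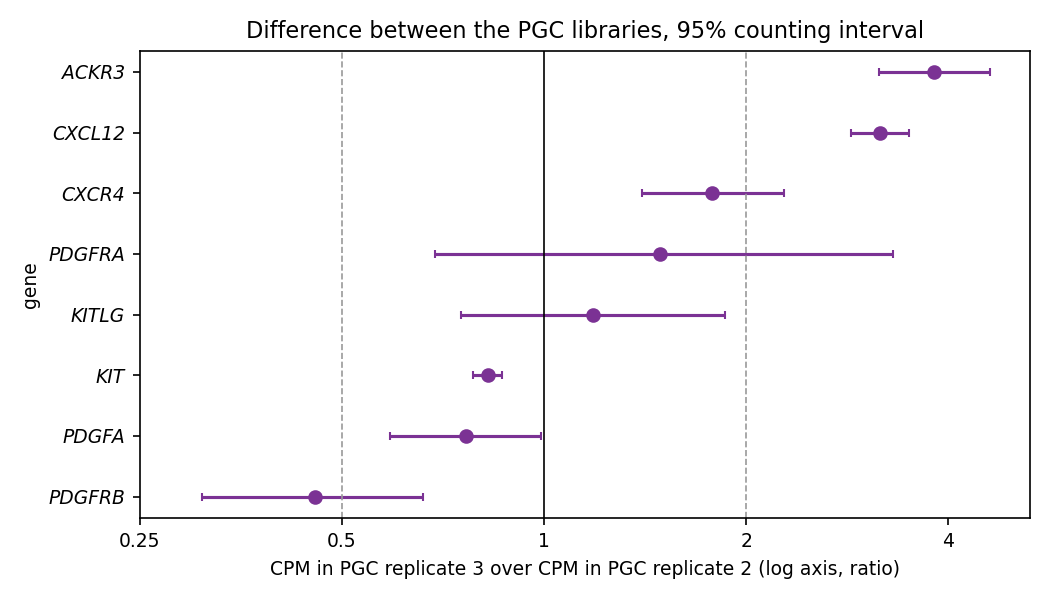
Ratio of CPM in PGC replicate 3 over PGC replicate 2 for each gene (log axis), with 95% exact counting intervals and dashed lines at 2-fold in each direction. ACKR3 at 3.80, CXCL12 at 3.16 and CXCR4 at 1.78 lie above 1, PDGFRB at 0.456 below it.

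The 3 genes of the CXCL12 system were thus all higher in PGC replicate 3 than in replicate 2. For each, this log2 difference was larger than the mean log2 ratio between the cell types. For CXCR4 the difference was 1.78-fold, which 13.1% of all tested genes exceeded. Its log2 value of 0.82 was smaller than the log2 ratio of PGC replicate 2 to the ESC library, −1.17. ACKR3 was 3.80-fold higher in replicate 3 (95% counting interval 3.15 to 4.62), a spread that 1.38% of all tested genes exceeded. PDGFRB went the other way, at 0.456 of its level in replicate 2 (95% counting interval 0.310 to 0.660). In all, 3 of the 8 genes were at least 2-fold apart between the PGC libraries, against 8.85% of all genes tested. For 6 of the 8 the counting interval of that ratio left out 1. The share of all tested genes with such an interval was not counted, so the 6 say nothing particular about these genes. KIT was among the 6, at 0.824 times its replicate 2 level (95% counting interval 0.785 to 0.865), a small difference that the high counts made measurable.

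Some mesenchymal genes, and genes of other marker lists, differed between the PGC libraries in the same direction as the CXCL12 system. COL1A2, a collagen of connective tissue, had 51.3 and 327 CPM in PGC replicates 2 and 3 and 39.5 CPM in the ESC library. VIM, an intermediate filament protein, had 213 and 565 CPM in the PGC libraries and 255 CPM in the ESC library. COL3A1 did not follow, with 570 and 402 CPM in PGCs against 13.3 CPM in the ESC library. Nor did PRRX1, with 6.88 and 5.95 CPM in PGCs against 1.01 CPM in the ESC library. Of 8 mesenchyme and fibroblast markers tested, 3 were higher and 3 lower in PGCs, beside 21.2% higher and 20.6% lower over all genes tested. The summed level of the 9 found was 844 and 1304 CPM in PGCs against 328 CPM in the ESC library. DCN, a matrix proteoglycan of fibroblasts, had 1 and 5 counts in PGCs and 123 in the ESC library. TWIST1 was at 0 in PGC replicate 3, but it stayed under 10 counts in every library and was not tested. The part of such cells in the spread of CXCL12, ACKR3 and CXCR4 was not tested. The share of counts from mitochondrial genes was 4.44% and 6.54% in PGC replicates 2 and 3 and 10.1% in the ESC library, and its part was not tested either.

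By TPM, the order of the 8 genes differed between the libraries. KIT led in PGC replicate 2 with 75.0 TPM and CXCL12 was next with 20.1 TPM, while in PGC replicate 3 CXCL12 with 54.8 TPM and KIT with 53.4 TPM were level. The ESC library was led by CXCL12 with 39.0 TPM, PDGFA with 24.4 TPM and PDGFRA with 17.2 TPM, and KIT was next to last with 1.83 TPM. PDGFRA was the lowest of the 8 in both PGC libraries, at 0.355 and 0.456 TPM. KITLG, at 2.63 and 2.69 TPM, and PDGFRB, at 3.07 and 1.21 TPM, exchanged places between the PGC libraries, as did PDGFA, at 11.8 and 7.80 TPM, with CXCR4 and ACKR3. In each cell type the ligand CXCL12 exceeded its receptor CXCR4, whose TPM was 0.330 and 0.186 times that of CXCL12 in PGCs and 0.259 times in the ESC library. This ratio overlapped between the cell types. ACKR3 relative to CXCR4 was 0.927 and 1.98 in PGCs, both above the 0.391 of the ESC library.

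**Figure D5:**
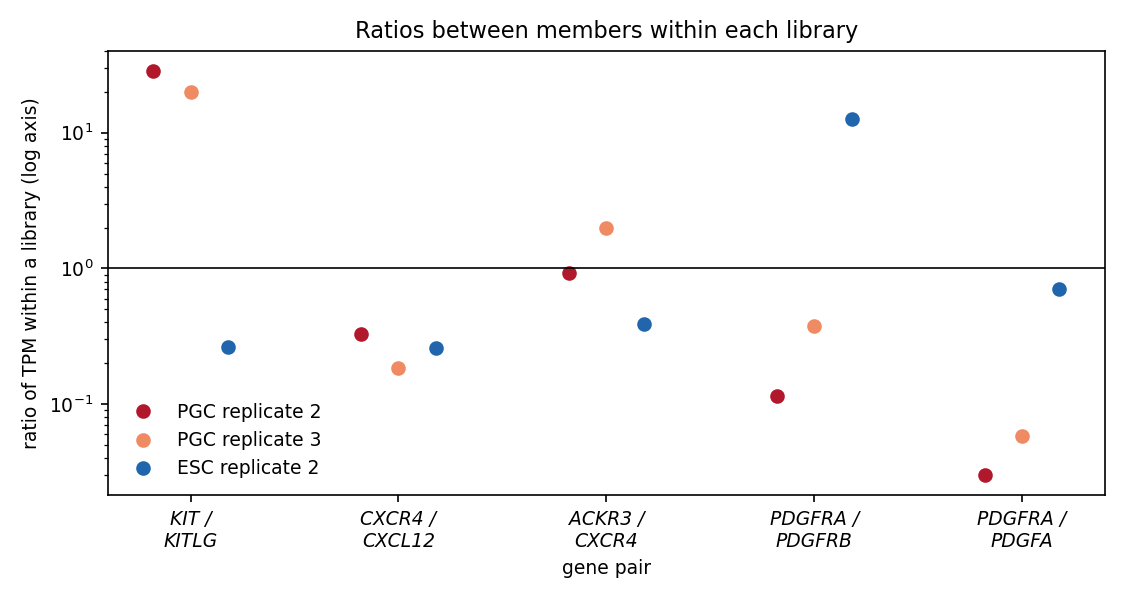
Ratio of TPM between pairs of genes within each library (log axis, line at 1) for PGC replicate 2, PGC replicate 3 and ESC replicate 2. KIT over KITLG is 28.5 and 19.8 in PGCs and 0.265 in ESCs, PDGFRA over PDGFRB is 0.115 and 0.376 in PGCs and 12.5 in ESCs, and CXCR4 over CXCL12 is 0.330 and 0.186 in PGCs and 0.259 in ESCs.

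Genes whose log2 CPM lay closest to each gene over the 3 libraries, by Euclidean distance and with no correction for length, were listed as a description. Nearest to KIT were CPEB1, a regulator of mRNA translation in germ cells, with 163 and 140 CPM in PGCs and 4.05 CPM in ESCs, RFTN1, a lipid raft protein, and PNLDC1, an exonuclease that trims piRNAs in mouse. Nearest to PDGFRA were KDR, the morphogen BMP4, with 0.759 and 0.720 CPM in PGCs and 36.6 CPM in ESCs, and GDPD5. CXCL12 was closest to EPAS1, a hypoxia-inducible transcription factor, with 22.3 and 68.1 CPM in PGCs and 79.8 CPM in ESCs, to the Nodal co-receptor CFC1 and to RSPO3, an enhancer of WNT signalling. CXCR4 was closest to RASEF, the glucocorticoid receptor NR3C1 and IRS2, and ACKR3 to ADAMTS18, GLP1R and ADGRB1. Near KITLG lay GDPD2 and RF00284, and PDGFRB lay nearest to GDAP1, ITGB2 and ALOX5, and PDGFA to CALD1, NEDD9 and SMPD1. With 3 libraries, of which 2 are of one cell type, the distances describe these libraries only.

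Of 12 relatives of these receptors and their ligands tested, 1 was higher and 4 were lower in PGCs, with a median log2 ratio of −0.76. Counts for this list and those that follow stand beside 21.2% higher and 20.6% lower over all genes tested. The gene that rose was PDGFD, a ligand of PDGFRB, with 50.1 and 44.9 CPM in PGCs against 2.76 CPM in the ESC library (edgeR adjusted p = 2.08e-05). PDGFRB itself, as given above, did not pass the test. Besides KDR, the VEGF receptors FLT1 and FLT4 fell, FLT4 with 6.61 and 5.52 CPM in PGCs against 42.1 CPM in the ESC library. These are genes of endothelium and lymphatic vessels. Of 6 endothelial markers tested, KDR itself among them, 4 were lower and 1 was higher in PGCs. The endothelial CDH5 had 0.357 and 0.288 CPM in PGCs against 8.28 CPM in the ESC library, while VWF, the von Willebrand factor, had 51.4 and 74.1 CPM in PGCs against 5.18 CPM in the ESC library. The summed level of the 6 endothelial markers found was 56.7 and 79.9 CPM in PGCs against 64.9 CPM in the ESC library, with none at 0. VWF made up 51.4 and 74.1 CPM of the PGC sums, and KDR made up 35.4 CPM of the ESC sum. The part of the endothelial markers other than KDR in the KDR and FLT values was not tested. Nor was that of the caudal mesoderm markers that the same ESC library carried.

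For the other chemokines and chemokine receptors, the 32 symbols listed led to 24 distinct genes outside the 8 members. Of these, 13 were tested, of which 2 were higher and 5 lower in PGCs. The median log2 ratio was −2.00, the value of ACKR4, which had only 2 and 1 counts in PGCs against 10 in the ESC library. Setting IL8 at a floor of 3 counts per PGC library could not move this median, because IL8 lay below it either way. CXCL14 fell furthest, with 0.804 and 4.66 CPM in PGCs against 409 CPM in the ESC library (edgeR adjusted p = 2.96e-05). IL8, a chemokine that attracts neutrophils, had 0 counts in both PGC libraries against 48 counts in the ESC library. CCR7, a receptor of lymphocytes and dendritic cells, had 0.446 and 0.624 CPM in PGCs against 14.7 CPM in the ESC library. The scavenging receptor ACKR2, a relative of ACKR3, rose with 8.13 and 5.81 CPM in PGCs against 0.563 CPM in the ESC library, as did CCR8 with 48 and 13 counts against 2 counts. Of 5 leukocyte markers tested, 2 were higher and 1 was lower in PGCs. PTPRC had 13.0 CPM in each PGC library against 3.43 CPM in the ESC library, CD74 had 7.05 and 4.18 CPM against 20.3 CPM, and ITGB2 had 5.18 and 1.92 CPM against 3.04 CPM. The summed level of the 6 found was 45.4 and 35.5 CPM in PGCs against 36.4 CPM in the ESC library. SPI1 was at 0 in PGC replicate 3, but it stayed under 10 counts in every library and was not tested. Their part in the chemokine values was not tested.

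The intracellular relay of receptor tyrosine kinases had the lowest share of genes past the test among the 7 lists, below the 41.7% of all genes tested. Of 33 tested genes, 2 rose, 7 fell and 24 did not pass, with a median log2 ratio of −0.33. CBL, the ubiquitin ligase that marks activated KIT for removal, rose with 168 and 145 CPM in PGCs against 33.7 CPM in the ESC library (edgeR adjusted p = 0.000223). PIK3CD, a catalytic subunit of phosphatidylinositol 3-kinase, rose with 65.9 and 47.1 CPM in PGCs against 10.9 CPM in the ESC library. Among those that fell were the kinase SRC, with 3.13 and 4.32 CPM in PGCs against 14.8 CPM in the ESC library, and the phospholipase PLCG1.

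Of 25 relay genes of CXCR4 tested, 4 rose and 10 fell, with a median log2 ratio of −0.12. DOCK2, an activator of RAC in leukocytes, had 1756 and 512 counts in PGC replicates 2 and 3 against 2 counts in the ESC library (edgeR adjusted p = 0.000170). It was lower in the PGC library in which CXCR4 was higher. GRK5, a kinase of G protein-coupled receptors, rose with 2.81 and 5.23 CPM in PGCs against 1.07 CPM in the ESC library, and PIK3CG with 24.1 and 13.9 CPM against 7.26 CPM. The tyrosine kinase PTK2B fell with 9 and 2 counts in PGCs against 132 counts in the ESC library. RGS1, with 3 and 0 counts against 24 counts, and RAC2, with 0 and 1 counts against 12 counts, also fell but were near the limit of detection.

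Enzymes that cut or shed the ligands differed in both directions. Of 11 tested, 6 rose and 2 fell, with a median log2 ratio of 0.79. DPP4, a peptidase that trims CXCL12 in mammals, rose with 16.5 and 13.5 CPM in PGCs against 3.10 CPM in the ESC library, and the proprotein convertase PCSK6 with 28.5 and 32.5 CPM against 7.21 CPM. PLAT, a plasminogen activator that in mammals also activates PDGFC, rose with 16.7 and 11.9 CPM in PGCs against 3.77 CPM in the ESC library. The sheddase ADAM10 fell with 144 and 178 CPM in PGCs against 409 CPM in the ESC library, and the convertase FURIN with 13.5 and 14.5 CPM against 32.6 CPM. Another ADAM enzyme of the list, ADAM17, rose with 392 and 385 CPM in PGCs against 134 CPM in the ESC library.

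Regulators known from mammals to act on KIT or CXCR4 transcription were lower in PGCs more often than higher. Of 10 tested, 1 rose and 6 fell, where 21.2% of all genes tested were higher and 20.6% lower, and the median log2 ratio was −1.66. GATA2, a regulator of KIT in blood progenitors of mouse, had 0.804 and 1.20 CPM in PGCs against 75.5 CPM in the ESC library (edgeR adjusted p = 2.52e-06). Its partners LMO2, with 1.74 and 2.78 CPM in PGCs against 19.3 CPM, and TAL1, with 0 and 4 counts against 36 counts, also fell. NRF1, a regulator of CXCR4 in human cells, rose with 25.4 and 23.3 CPM in PGCs against 12.8 CPM in the ESC library.

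Among 10 other genes of germ cell migration tested, 1 rose and 5 fell, with a median log2 ratio of −1.18. The laminin receptor subunit ITGA6 rose with 173 and 262 CPM in PGCs against 64.7 CPM in the ESC library (edgeR adjusted p = 0.00198). The epithelial cadherin CDH1 fell with 13.3 and 24.0 CPM in PGCs against 466 CPM in the ESC library, and the ligand WNT5A with 1.29 and 1.44 CPM against 62.3 CPM. LPAR1, a receptor for lysophosphatidic acid, fell with 0.580 and 0.816 CPM in PGCs against 3.60 CPM in the ESC library. Over all 7 lists, 113 distinct gene symbols were tested, of which 17 rose and 39 fell. In either direction 49.6% passed, beside the 41.7% of all genes tested. The repeated entry of H-RAS, counted in the receptor tyrosine kinase relay, was left out of this total. By direction, 21.2% of all genes tested were higher and 20.6% lower in PGCs.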

How the data were processed

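Total RNA was sequenced as paired-end reads. Per the study's methods, the authors aligned reads with TopHat and Bowtie 2 to Ensembl gene transcripts of galGal5 and deposited whole-number counts per gene from featureCounts. Aligner and counter versions and the strand setting are not given in the sources used here. No exon of the 8 genes overlapped another gene. The authors' second table, with 16030 genes, held a deposited normalized signal, which equalled the count divided by 1 DESeq2 size factor per library in 100% of values (tolerance 1e-06). It was used for gene symbols and for 1 scaling alternative. Its fold change and p-value columns were not used. A further 4 per-sample columns, 1 for each cell type in either table and all named as replicate 1, match no sample label and were used in no step. The study's other ESC library is therefore not analysed here. The methods name 2 sequencing providers, 2 instruments and 2 read lengths without assigning them to libraries, and the labels name 1 provider for all 3.

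Genes reaching 10 counts in any library were kept (14489, with 4663 removed), scaled with TMM and tested with edgeR 4.0.16 in R 4.3.3 (glmQLFit and glmQLFTest, 2 PGC libraries against 1 ESC library, 1 residual degree of freedom, Benjamini-Hochberg). Standard errors and intervals of the log2 fold change were derived from the F statistic. Log2 ratios used a prior count of 2. An exact permutation test over these libraries cannot give a p below 0.333. The study calls its libraries biological replicates, but the labels do not say whether separate embryos gave rise to them. The spread behind the edgeR p-values and standard errors could be seen only between the 2 PGC libraries. To the 1 residual degree of freedom edgeR added 8.92 prior degrees of freedom from all genes tested. The p-values therefore rest mostly on a spread shared with other genes and little on that of the gene itself. Scripts were tested on simulated data, in which the ESC library was given the spread of the PGC libraries. There the test called 11 of 50 genes changed 2-fold and 43 of 50 changed 4-fold. In the simulation 14289 of 14489 genes were unchanged, so far fewer genes changed there than passed here. The adjustment was therefore stricter there, and these rates do not carry over to this comparison. A gene that did not pass here can still differ by 2-fold, as the 95% intervals of CXCR4, CXCL12, ACKR3 and PDGFRB each included such a change. Counting intervals are 95% exact Poisson or binomial and cover counting error only.

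The members and lists were chosen with earlier results of these data known. Named genes are the 8 members, up to 3 genes highest and 3 lowest of each list among those past the test with the same sign in both PGC libraries, the 3 genes nearest each member, and DAZL, DDX4, NANOG and POU5F3. Some genes that this rule names are not reported here. CLOCK, TMEM165, CHIC2, SRD5A3, ADAM17 and the marker genes given beside results were chosen after their values were seen. DDX4 had 877 and 1165 CPM in PGCs and 19.8 CPM in ESCs, and POU5F3 had 308 and 533 CPM in PGCs and 601 CPM in ESCs. Symbols missing from the authors' table were matched through RefSeq synonyms (GRCg7b, names only). Marker lists of other cell types gave, as higher and lower of those tested, hypoblast and endoderm 2 and 2 of 7, neural 3 and 0 of 4, pluripotent cell 0 and 1 of 6, leukocyte 2 and 1 of 5, and erythroid 0 and 2 of 2. DESeq2 1.42.0 was run as an alternative, with the adjusted p missing for 281 genes.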

Additional observations from a re-analysis of the deposited data

How the results depend on the processing

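Of 64 alternatives with a test for the 8 genes, 60 kept the direction and the side of the threshold, 4 changed side and 0 changed sign. The 60 include the alternative with a prior count of 0.5, 1 for each of the 8 genes. It changed the log2 ratio only and kept the main adjusted p, so its side of the threshold could not change. KITLG lost its call with DESeq2 (−1.85) and with TPM scaling (−1.34). ACKR3 gained one with total counts (1.33) and with TPM scaling (1.48). The median log2 ratio of all genes shifted by 0.31 with total counts and by 0.46 with TPM scaling. With 1 PGC library left out, which gives values with no test, KIT ranged 4.48 to 4.76, KITLG −1.91 to −1.68, CXCR4 −1.17 to −0.35, CXCL12 −1.53 to 0.13, ACKR3 0.06 to 1.97, PDGFRA −5.95 to −5.44, PDGFRB −0.52 to 0.58 and PDGFA −1.98 to −1.61. Of these 16 values 2 changed sign, CXCL12 without PGC replicate 2 (0.13) and PDGFRB without PGC replicate 2 (−0.52), and neither gene was called. Genes at least 2-fold higher numbered 3124 and at least 2-fold lower 2293. These were 1491 and 859 at a 4-fold threshold, 3506 to 3812 and 2599 to 3047 with 1 PGC library left out, 3871 and 1644 with total counts, and 4272 and 1431 with TPM scaling. Genes past the test numbered 3069 higher and 2979 lower, 4161 and 2063 with total counts, and 1766 and 1730 at an adjusted p of 0.01. No paired analysis was possible because the libraries analysed here share only replicate number 2 between the groups. With 1 ESC library used, it could not be left out. At this depth, PDGFRA in PGCs rested on 13 and 18 counts.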
